A study of Mus musculus with 8 samples.

Results

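Microglia are the resident macrophages of the brain. Their marker genes were followed here in the dorsal lateral geniculate nucleus (dLGN), the part of the thalamus that relays retinal input to the cortex. The markers were given as 33 gene symbols, and 32 of them were found among the 23116 genes of the table by an exact match of the symbol. Selplg was not analysed here. Total RNA, depleted of ribosomal RNA, was sequenced from the dLGN of 8 C57BL/6J mice, as the labels name the strain, labelled as taken at postnatal day 27 under standard housing. Of these, 4 were Fn14 WT and 4 were Fn14 KO littermates, where Fn14 is the receptor of the cytokine TWEAK and is encoded by Tnfrsf12a. Males and females were used, each mouse was its own library, and the nucleus was cut by eye under a dissection microscope from vibratome sections. The sources used here do not give the type of KO allele or the part of the gene that was removed. Libraries are called WT 1 to WT 4 and KO 1 to KO 4.

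Microglia depend on the receptor Csf1r, which binds CSF1 and IL-34, and sense nucleotides, chemokines and lipids through a set of surface receptors. Some surface receptors, such as Trem2, signal through small adapters such as Tyrobp (DAP12) and Fcer1g. Transcription factors including PU.1, IRF8 and SALL1 maintain the cell's identity. In the developing dLGN microglia are known for engulfing retinal inputs, in part through complement receptor 3, the pair of integrin chains encoded by Itgam and Itgb2.

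Levels are in TPM, the authors' deposited unit, which divides by transcript length so levels of different genes can be compared. The libraries summed to between 968958 and 997426 TPM over the genes of the table, and their depth is unknown. The gene for Fn14, Tnfrsf12a, was at 4.78, 5.48, 3.67 and 0.82 TPM in WT 1 to WT 4 and at 2.95, 1.12, 1.32 and 1.86 TPM in KO 1 to KO 4. The library labelled WT 4 therefore lay below every KO library, against its label, and the difference did not pass (log2 difference −0.63, limma adjusted p = 0.45). WT 1 and WT 2 differed widely from all others. Mbp, a major myelin protein gene, was at 11153 and 13566 TPM in these and between 34.4 and 51.3 TPM in the other 6. Summed over 9 markers of young neurons, the level was 1772 and 1746 TPM in these against 10180 to 13950 TPM, and over 8 dividing-cell markers 30.3 and 20.9 TPM against 79.8 to 170.6 TPM. The labels give the same age for all 8 libraries. Whether it holds for WT 1 and WT 2, or for the other 6, was not tested. In bulk tissue, fewer cells of a type and less RNA per cell cannot be told apart. Because both libraries are WT and all KO libraries are on the other side, the main KO minus WT values below are given with and without WT 1 and WT 2.

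Promoter sequence was available for 25 of the 32 markers, as RefSeq windows on GRCm38.p6. The 7 sequences shown are the 120 bases just before the annotated start of some of the markers that the results below turn on. Capitals mark matches, on either strand, to the letters GAGGAA (part of the site of PU.1, read as TTCCTC on the other strand) or TGTGGT (a RUNX site, read as ACCACA on the other strand).
Laptm5 (chr4:130913196-130913315, plus strand): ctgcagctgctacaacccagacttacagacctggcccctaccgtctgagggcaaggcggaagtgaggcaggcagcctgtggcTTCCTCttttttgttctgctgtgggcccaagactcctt
Trem2 (chr17:48346281-48346400, plus strand): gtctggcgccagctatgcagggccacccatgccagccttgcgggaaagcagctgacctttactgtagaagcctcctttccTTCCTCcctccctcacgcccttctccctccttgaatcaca
Fcrls (chr3:87263525-87263644, minus strand): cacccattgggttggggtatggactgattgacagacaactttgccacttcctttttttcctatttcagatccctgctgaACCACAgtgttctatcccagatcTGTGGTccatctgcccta
Fcgr3 (chr1:171059404-171059523, minus strand): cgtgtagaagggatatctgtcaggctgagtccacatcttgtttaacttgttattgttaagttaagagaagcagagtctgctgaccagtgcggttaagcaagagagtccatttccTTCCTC
Itgam (chr7:128062520-128062639, plus strand): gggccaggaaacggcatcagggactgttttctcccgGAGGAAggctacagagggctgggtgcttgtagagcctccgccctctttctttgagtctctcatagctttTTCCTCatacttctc
Cx3cr1 (chr9:120068297-120068416, minus strand): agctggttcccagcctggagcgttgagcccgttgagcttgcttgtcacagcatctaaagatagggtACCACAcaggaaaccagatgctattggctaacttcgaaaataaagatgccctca
Ly86 (chr13:37345225-37345344, plus strand): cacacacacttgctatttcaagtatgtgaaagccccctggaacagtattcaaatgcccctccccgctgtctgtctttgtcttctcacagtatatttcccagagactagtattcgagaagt

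Over the 250 bases before the start, GAGGAA was found in 15 of 31 marker windows (48.4%). It was found in 23.3% of all 32851 windows on the chromosomes used. TGTGGT was found in 8 of 31 (25.8%) and in 14.0% of all windows. GGAANNGAA, a joint PU.1 and IRF site that can share its bases with GAGGAA, was found in 1 of 31 (3.23%), a window of Runx1, and in 6.99% of all windows. Some genes have several windows. Laptm5 holds the PU.1 letters 38 to 33 bases before the start, Trem2 40 to 35 bases before it, and Itgam both 84 to 79 and 15 to 10 bases before it. Ly86 holds none of these letters in its 250 bases. The same is true of P2ry12, Sall1, Irf8, Olfml3, Fcer1g and Slc2a5, which are not shown. These are matches of letters only.

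The markers were expressed at low to moderate levels in every library. Cd83, an immunoglobulin-family surface protein gene, had the highest mean over the 8 libraries at 29.97 TPM, followed by Csf1r at 25.9 TPM, Fcrls at 18.1 TPM, the chemokine receptor gene Cx3cr1 at 17.4 TPM and Laptm5 at 13.9 TPM. C5ar1, the receptor of the complement fragment C5a, was lowest at 0.694 TPM and was listed at 0 in WT 1. In all, 10 of 32 markers had a mean of at least 10 TPM. The order was not the same everywhere: Csf1r ranked first in WT 1 and WT 2, while Cd83 ranked first in each of the other 6. The neighbours Csf1r and Fcrls did not keep their order either, since Fcrls was above Csf1r in WT 3. The defining markers Csf1r, Cx3cr1, P2ry12 and Tmem119 had values above 0 in all 8 libraries. Sfpi1, the table's older symbol for the PU.1 gene Spi1, lay between 1.31 and 3.37 TPM.

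**Figure D1:**
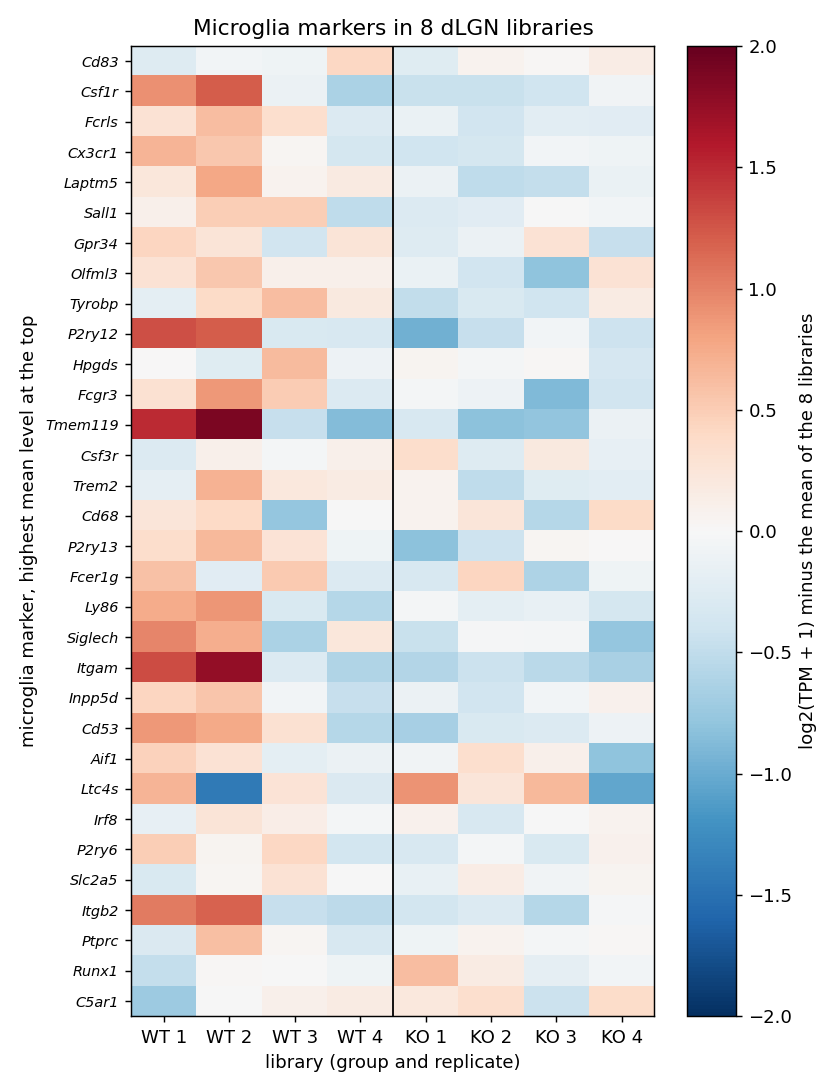
Heat map of 32 microglia markers (rows, highest mean level at the top) in the 8 libraries (columns), coloured by log2(TPM + 1) minus the marker's mean over the 8 libraries. Tmem119, Itgam, P2ry12, Itgb2 and Csf1r are above their mean in WT 1 and WT 2, and rows such as Irf8 and Slc2a5 are close to it throughout.

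Summed over the 32 markers, the level was 328 and 379 TPM in WT 1 and WT 2, 252 TPM in WT 3 and 218 TPM in WT 4. In KO 1 to KO 4 it was 199, 199, 204 and 218 TPM. WT 1 and WT 2 were the 2 highest libraries and WT 3 the next. WT 4 lay between the lowest and the highest KO library, so the groups overlapped. The mean was 294 ± 73.0 TPM over WT and 205 ± 9.06 TPM over KO (SD, n = 4 each). Without Csf1r, P2ry12, Tmem119, Itgam and Itgb2, left out after their values were seen, the sum was 232, 264, 217 and 192 TPM in WT mice and 172, 171, 173 and 182 TPM in KO mice. On that sum every WT library was above every KO library, and WT 1 and WT 2 were still the highest. No test was made on these sums, whose members were chosen with earlier results known.

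Whether loss of Fn14 goes with a change in microglial transcripts was asked by comparing KO with WT. Of the 31 markers with a mean of at least 1 TPM, none passed the threshold of limma (a linear model with moderated variances, Benjamini-Hochberg adjusted p under 0.05 over 15967 genes) in either direction, where the share of all genes called was 0% lower and 0% higher. At an unadjusted p under 0.05 in limma, 3 of the 31 (9.68%) were lower in KO, against 2.33% of all genes, and 0 were higher, against 5.33% of all genes. These 3 were Laptm5, Fcrls and Fcgr3. The KO minus WT difference on the log2(TPM + 1) scale was below 0 for 27 markers and above 0 for 4, with a median of −0.37, where the median of all genes was 0.10 and 39.9% of them lay below 0. Scaling the libraries by TMM or quantiles moved the median of all genes to 0.009 and 0.002, and the markers' median to −0.46 and −0.54. Without WT 1 and WT 2, the markers' median was −0.12, with 21 below and 10 above 0, and that of all genes was −0.003.

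**Figure D2:**
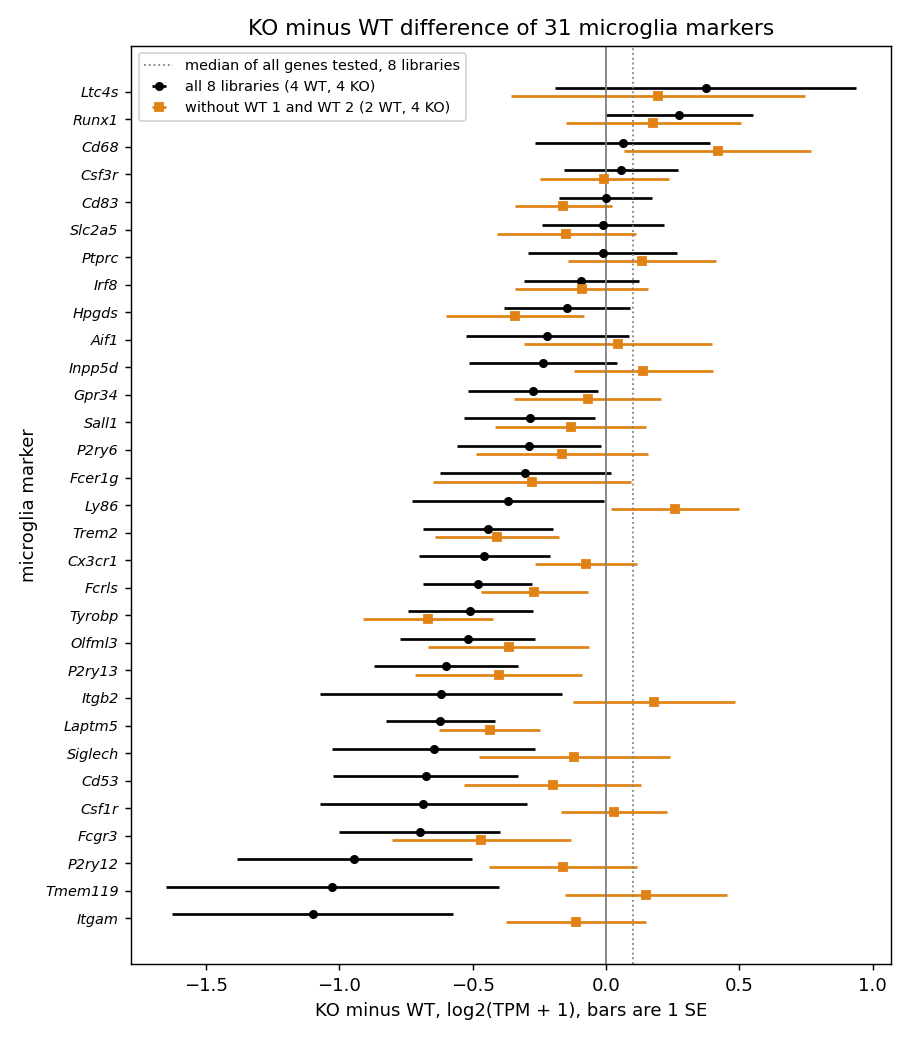
KO minus WT difference in log2(TPM + 1) for 31 microglia markers, with bars of 1 SE, from all 8 libraries (black) and without WT 1 and WT 2 (orange); the dotted line is the median of all genes tested with 8 libraries, 0.10. Tmem119, Itgb2 and Csf1r lie below 0 in black and above 0 in orange, while Laptm5, Tyrobp and Trem2 lie below 0 in both.

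Laptm5, which encodes a lysosomal membrane protein of blood-derived cells, was the only marker whose groups did not overlap, where 0.921% of all genes were wholly lower and 2.42% wholly higher in KO. It lies on chromosome 4 from 130913125 to 130936141 on the plus strand (GRCm38). Laptm5 reached 15.8, 23.5, 14.2 and 15.3 TPM in WT mice against 12.2, 9.07, 9.37 and 12.1 TPM in KO mice. Every WT library was above every KO library. The log2 difference was −0.62 (SE 0.20, limma adjusted p = 0.43, not past the threshold) and −0.44 (SE 0.19) without WT 1 and WT 2. Cd68, a lysosomal glycoprotein of macrophages, went the other way in size, at 5.62 ± 2.07 TPM in WT mice and 5.82 ± 1.78 TPM in KO mice (SD, n = 4 each), with a log2 difference of 0.06, or 0.42 without WT 1 and WT 2, that turned to below 0 after quantile or TMM scaling.

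Immune receptors and their adapters all lay below 0 in KO, 8 of 8, against 39.9% of all genes. Cd83, counted among the 8, was at −0.001. The median log2 difference was −0.46, and −0.27 without WT 1 and WT 2. Tyrobp, the adapter of Trem2 and other receptors, was at 9.13, 14.0, 16.8 and 12.3 TPM in WT mice and 7.24, 8.37, 7.79 and 11.9 TPM in KO mice. WT 3 and WT 4 were both above all 4 KO libraries, but WT 1 lay below KO 4. Its log2 difference was −0.51 (SE 0.23, adjusted p = 0.43 in limma) and −0.67 without WT 1 and WT 2. Trem2, a receptor for lipids and lipoproteins on microglia, was at 5.03, 10.1, 6.96 and 6.65 TPM in WT mice and 6.20, 3.84, 4.78 and 4.93 TPM in KO mice. Here too WT 3 and WT 4 were above every KO library and WT 1 was not. Of the 32 markers, 3 had WT 3 and WT 4 both above all KO libraries (Laptm5, Tyrobp and Trem2) and 0 both below. The share of all genes with this order was not computed, so it cannot be read as particular to these markers. The log2 difference was −0.44 (SE 0.24) and −0.41 without WT 1 and WT 2. In the comparison of KO with WT 3 and WT 4 alone, Tyrobp was the only 1 of 31 markers (3.23%) with an unadjusted p under 0.05 in limma, against 1.11% of all genes lower and 1.03% higher, and none passed after adjustment, where 0.0125% of all genes passed as lower and 0% as higher.

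Fcrls, an Fc receptor-like scavenger receptor used as a microglia marker in mouse, was at 21.6, 27.6, 22.45 and 14.3 TPM in WT mice and 15.9, 13.2, 15.1 and 14.9 TPM in KO mice. Of the WT libraries 3 were above all KO libraries and WT 4 was among them, with a log2 difference of −0.48 (SE 0.20) and −0.27 without WT 1 and WT 2. Fcgr3, a low-affinity receptor for IgG, was at 9.18, 14.0, 10.8 and 5.85 TPM in WT mice and 7.09, 6.71, 3.49 and 5.37 TPM in KO mice. WT 4 was again the WT library within the KO range, and the log2 difference was −0.70 (SE 0.30) and −0.47 without WT 1 and WT 2. Fcgr3 belongs to a family of similar Fc receptor genes, and how the authors' counting divided shared reads is not known from the sources used here. Cd83 was at 24.6, 28.4, 27.8 and 39.7 TPM in WT mice and 24.8, 31.2, 30.2 and 33.1 TPM in KO mice, where WT 4 was highest and the log2 difference was −0.001 (SE 0.17) and −0.16 without WT 1 and WT 2. Fcer1g, Siglech and Ly86, which encodes the partner of a Toll-like receptor relative, had log2 differences of −0.30, −0.65 and −0.37, and of −0.28, −0.12 and 0.26 without WT 1 and WT 2.

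The receptors for purines and related ligands lay below 0 in KO for 4 of 4, against 39.9% of all genes. Their median was −0.45, and −0.16 without WT 1 and WT 2. P2ry12, the ADP receptor that guides microglial processes to injury, was at 23.1, 21.9, 6.95 and 6.93 TPM in WT mice and 4.06, 6.12, 8.50 and 6.42 TPM in KO mice. WT 1 and WT 2 were the high libraries, and WT 3 and WT 4 lay within the KO range. The log2 difference was −0.94 (SE 0.44, adjusted p = 0.43 in limma) and −0.16 without WT 1 and WT 2. P2ry13, a second ADP receptor gene next to it on chromosome 3, was at 7.15, 9.01, 6.76 and 5.05 TPM in WT mice and 2.60, 3.77, 5.53 and 5.45 TPM in KO mice, with WT 4 inside the KO range and a log2 difference of −0.60 (SE 0.27) and −0.40 without them. Both lie within Med12l on the opposite strand, which was at 24.4 to 52.8 TPM. The sources used here do not say whether counting used strand, so the assignment of reads is uncertain here, as for all 13 markers that overlap an annotated gene. Gpr34, a lysophosphatidylserine receptor gene that lies within Cask on the X chromosome, was at 15.8, 13.8, 8.49 and 13.8 TPM in WT mice and 9.40, 10.4, 14.2 and 8.04 TPM in KO mice, with overlapping groups and a log2 difference of −0.27 (SE 0.24) and −0.07 without WT 1 and WT 2. P2ry6, a UDP receptor that triggers phagocytosis, was at 2.22 ± 0.816 TPM in WT mice and 1.59 ± 0.363 TPM in KO mice (SD, n = 4 each), a log2 difference of −0.29 and −0.16 without WT 1 and WT 2.

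Among receptors for cytokines, chemokines and complement, Csf1r was at 44.4, 54.6, 21.2 and 14.6 TPM in WT mice and 16.6, 16.7, 17.25 and 22.0 TPM in KO mice. WT 1 and WT 2 were the high libraries, and WT 4 was the lowest of all 8. Its log2 difference was −0.69 (SE 0.39, adjusted p = 0.43 in limma) and 0.03 without WT 1 and WT 2. Cx3cr1, the receptor of the neuronal chemokine fractalkine, was at 27.5, 24.7, 17.3 and 12.9 TPM in WT mice and 12.4, 12.8, 16.0 and 15.65 TPM in KO mice, with a log2 difference of −0.46 (SE 0.25) and −0.07 without them. The annotated span of Cx3cr1 overlaps 5 other protein-coding genes, among them Wdr48 and Csrnp1. Csf3r, the receptor of granulocyte colony-stimulating factor, was at 6.83 ± 0.929 TPM in WT mice and 7.21 ± 1.65 TPM in KO mice (SD, n = 4 each), with overlapping groups and a log2 difference of 0.06 that turned to below 0 after quantile or TMM scaling. C5ar1 was below the mean of 1 TPM needed for testing.

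Adhesion and surface proteins lay below 0 in KO for 6 of 6, against 39.9% of all genes. Their median was −0.65, and 0.01 without WT 1 and WT 2. Itgam, the CD11b chain of complement receptor 3, which overlaps the annotated gene Gm49368 on the same strand, was at 8.23, 11.6, 2.09 and 1.44 TPM in WT mice and 1.48, 1.77, 1.55 and 1.37 TPM in KO mice. Only WT 1 and WT 2 were well above the rest. The log2 difference was −1.10 (SE 0.53, adjusted p = 0.43 in limma) and −0.11 without them. Its partner chain Itgb2 was at 3.48, 3.97, 0.59 and 0.53 TPM in WT mice and 0.69, 0.81, 0.48 and 1.15 TPM in KO mice, so both chains had the same high libraries, and its log2 difference was −0.62 (SE 0.45) and 0.18 without them. Tmem119, a membrane protein that marks microglia among brain macrophages, was at 17.3, 23.2, 3.77 and 2.58 TPM in WT mice and 4.21, 2.69, 2.78 and 5.05 TPM in KO mice, a log2 difference of −1.03 (SE 0.62) and 0.15 without WT 1 and WT 2. Olfml3, which encodes a secreted olfactomedin-family protein, was at 13.2, 15.9, 11.5 and 11.5 TPM in WT mice and 9.59, 7.92, 5.65 and 13.2 TPM in KO mice. KO 4 lay among the WT libraries, and the log2 difference was −0.52 (SE 0.25). Cd53, a tetraspanin of leukocytes, had a log2 difference of −0.68 (SE 0.35) and −0.20 without WT 1 and WT 2. Ptprc, the leukocyte phosphatase CD45, had one of −0.01 (SE 0.28) and 0.13 without them.

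**Figure D3:**
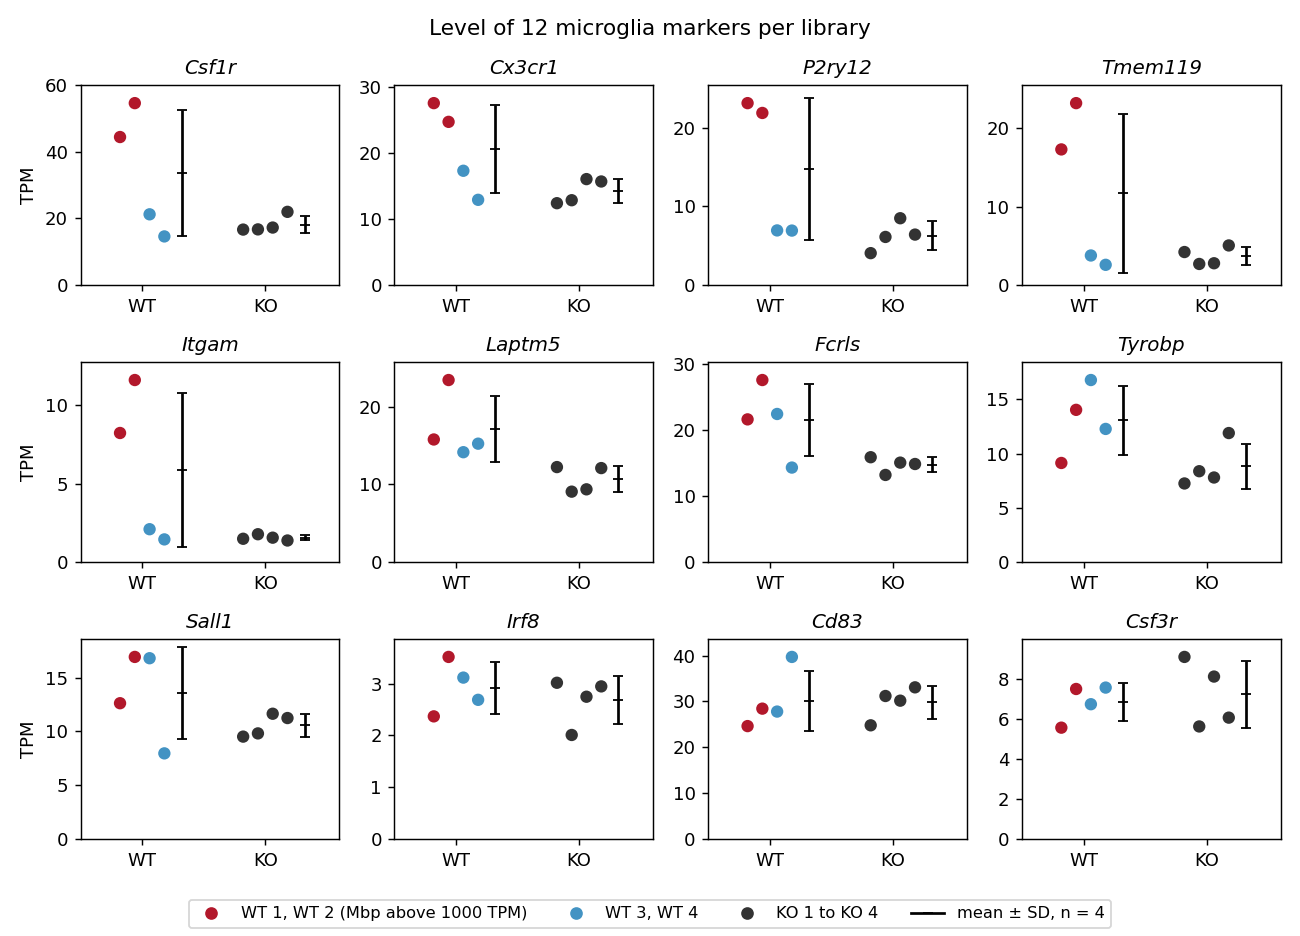
TPM of 12 microglia markers in each library by group, with WT 1 and WT 2 in red, WT 3 and WT 4 in blue, KO in black, and the mean ± SD of 4 libraries beside each group. WT 1 and WT 2 are far above the rest for P2ry12, Tmem119 and Itgam, all 4 WT libraries are above KO for Laptm5, and the groups overlap for Irf8, Cd83 and Csf3r.

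Of the transcription factor genes, Sall1, a factor that sets microglial identity, was at 12.6, 16.9, 16.8 and 7.96 TPM in WT mice and 9.52, 9.82, 11.65 and 11.25 TPM in KO mice, with WT 4 lowest of all and a log2 difference of −0.29 (SE 0.25) and −0.13 without WT 1 and WT 2. Irf8 was at 2.92 ± 0.502 TPM in WT mice and 2.68 ± 0.463 TPM in KO mice, and Runx1 at 0.833 ± 0.274 and 1.25 ± 0.579 TPM (SD, n = 4 each). The log2 difference of Runx1 was 0.27, or 0.18 without WT 1 and WT 2, and turned to below 0 after quantile scaling. Of the enzymes, signalling and transport genes, Aif1, which encodes the actin-binding protein Iba1, had a log2 difference of −0.22 (SE 0.30), the lipid phosphatase gene Inpp5d of −0.24 (SE 0.28), the prostaglandin D synthase gene Hpgds of −0.15 (SE 0.24) and the fructose transporter gene Slc2a5 of −0.01 (SE 0.23). Without WT 1 and WT 2 these were 0.04 for Aif1, 0.14 for Inpp5d, −0.34 for Hpgds and −0.15 for Slc2a5. Ltc4s, the leukotriene C4 synthase gene, varied most between KO libraries, at 5.28, 2.96, 4.23 and 0.63 TPM, and was at 4.38, 0.26, 3.07 and 1.73 TPM in WT, with a log2 difference of 0.37, or 0.20 without WT 1 and WT 2. Its coefficient of variation in KO was 61.1%, against 7.64% for Fcrls.

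The markers were also compared between WT 1 and WT 2, the libraries with Mbp above 1000 TPM, and the other 6. This division was drawn from measured values, so it is described without a test. WT 1 and WT 2 were both above all other 6 libraries for 13 of 31 markers (41.9%), against 22.5% of all genes, and both below for none, against 40.5% of all genes. Their mean was at least 2-fold higher for 8 of 31 markers (25.8%), against 10.2% of all genes, and at least 2-fold lower for none, against 23.8%. The filter of a mean of at least 1 TPM used all 8 libraries, so these counts depend in part on it. Itgb2, at a mean of 0.708 TPM in the other 6, passed it only through WT 1 and WT 2 and is in both higher counts. C5ar1, lower in WT 1 and WT 2, did not pass it and is in no count. The median log2 difference was 0.50 for the markers and −0.26 for all genes. Itgam was 6.14-fold higher in the mean, Tmem119 5.76-fold, Itgb2 5.26-fold, P2ry12 3.47-fold, Csf1r 2.74-fold, Siglech 2.54-fold, Cd53 2.50-fold and Ly86 2.48-fold. Hpgds, Csf3r, Cd83, Slc2a5, Ltc4s, Runx1 and C5ar1 had a lower mean in WT 1 and WT 2, at 0.861, 0.907, 0.852, 0.828, 0.778, 0.634 and 0.384 times the mean of the others. Tyrobp and Irf8 were nearly level, at 1.08 and 1.07 times. By role, the summed level in WT 1 and WT 2 was 2.91 times that of the others for adhesion and surface proteins, 2.03 times for cytokine, chemokine and complement receptors and 2.01 times for purinergic receptors. It was 1.55 times for lysosomal proteins, 1.27 times for immune receptors and adapters, 1.23 times for transcription factors and 1.09 times for enzymes, signalling and transport genes.

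**Figure D4:**
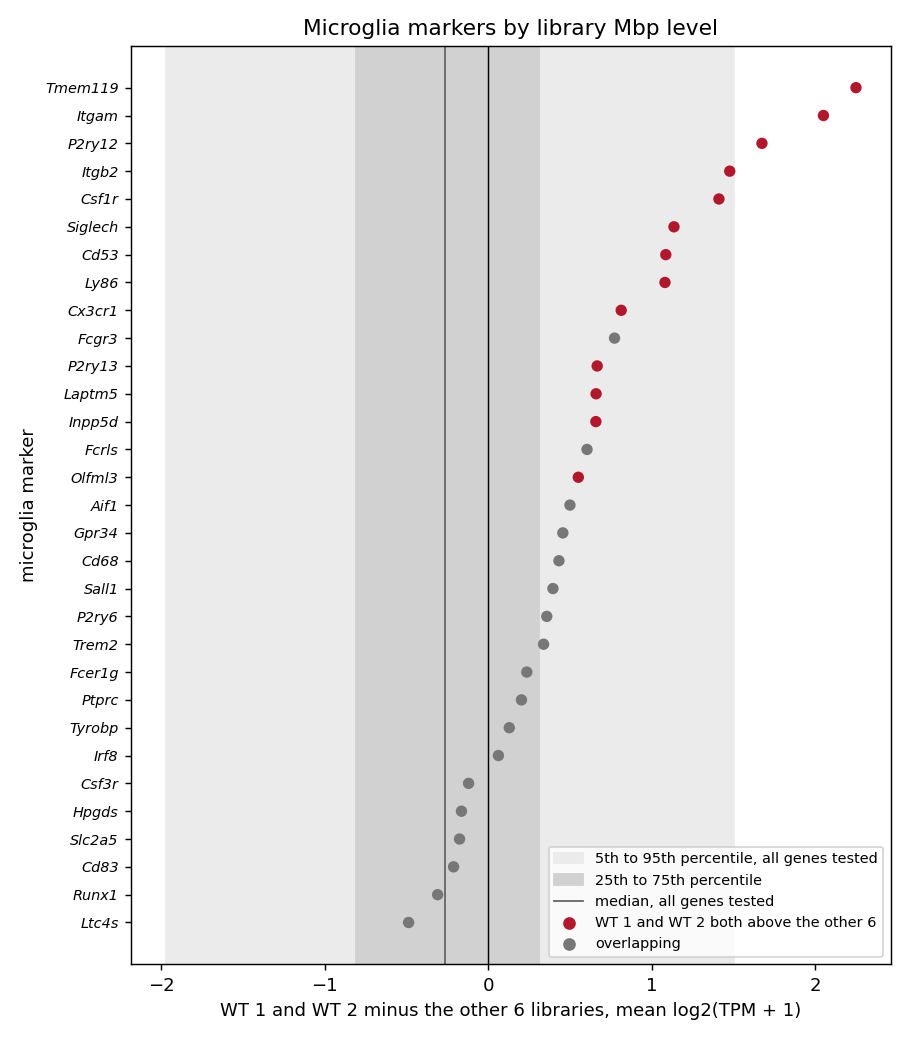
Mean log2(TPM + 1) of WT 1 and WT 2 minus that of the other 6 libraries for 31 microglia markers, over the spread of all genes tested (grey bands and line, median −0.26). Tmem119 and Itgam lie beyond the 95th percentile of all genes, as does P2ry12, while Csf3r, Hpgds, Slc2a5, Cd83, Runx1 and Ltc4s lie below 0.

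The share of each marker in the markers' summed TPM was also computed. These shares are not independent of the levels above, since the markers that were high in WT 1 and WT 2 also raise the sum there. Csf1r held 13.5% and 14.4% of the summed level in WT 1 and WT 2 and 6.70% to 10.1% in the other 6 libraries. Tmem119 held 5.27% and 6.12% against 1.18% to 2.32%, P2ry12 7.05% and 5.77% against 2.04% to 4.17%, and Itgam 2.51% and 3.06% against 0.629% to 0.891%. For these 4 markers the ranges did not overlap. Cd83 held 7.51% and 7.50% in WT 1 and WT 2 against 11.04% to 18.2%, while its own level overlapped, at 24.6 and 28.4 TPM against 24.8 to 39.7 TPM. The shares of Fcrls (6.59% and 7.28% against 6.57% to 8.92%) and Cx3cr1 (8.38% and 6.50% against 5.91% to 7.86%) were close in both.

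**Figure D5:**
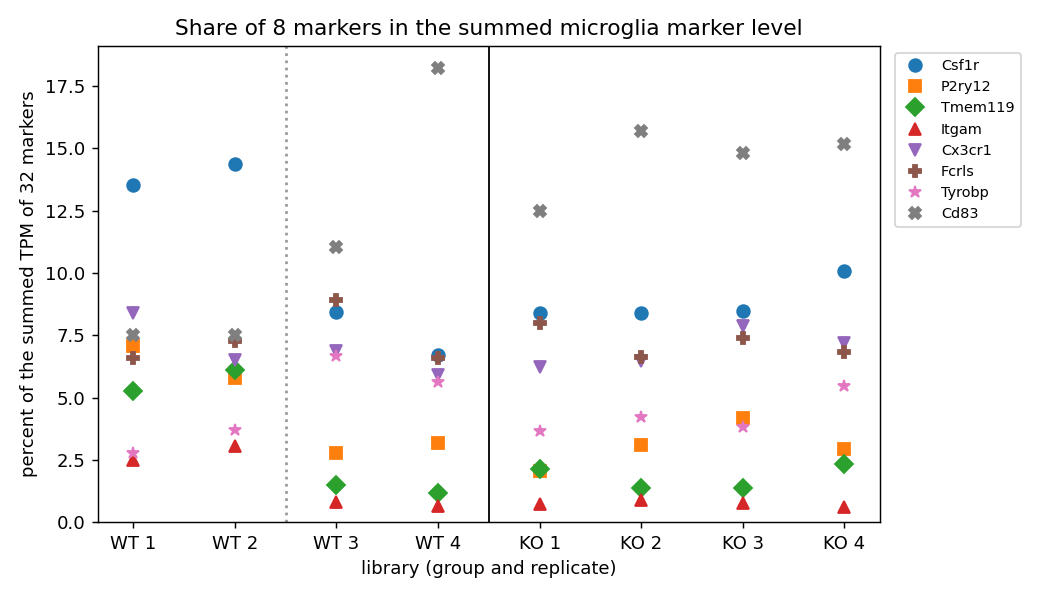
Share of 8 markers in the summed TPM of 32 microglia markers, in percent, per library; the dotted line separates WT 1 and WT 2 from the rest and the solid line WT from KO. Csf1r, P2ry12, Tmem119 and Itgam have their highest shares in WT 1 and WT 2, and Cd83 its lowest.

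A further 38 microglia-enriched genes, of 40 listed, had a row. Of 34 tested, none passed in limma, 2 were lower and 1 higher at an unadjusted p under 0.05, against 2.33% and 5.33% of all genes. Of these genes 24 lay below and 10 above 0, where 39.9% of all genes lay below, and the median was −0.17 and −0.02 without WT 1 and WT 2. C1qb, a subunit of the complement C1q complex, was at 44.1, 47.4, 29.8 and 20.8 TPM in WT mice and 26.0, 24.4, 18.0 and 17.5 TPM in KO mice. Its highest libraries were WT 1 and WT 2, while Rgs10, a regulator of G protein signalling, was lowest there at 15.1 and 20.8 TPM against 25.95 to 52.2 TPM.

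Growth factors and regulators of microglia had 8 of 15 members below and 7 above 0, with none passing, where 39.9% of all genes lay below 0. Il34, a CSF1R ligand made by neurons, reached 10.8 and 10.02 TPM in WT 1 and WT 2 and 3.46 to 5.93 TPM in the other 6, and Csf1 at 16.0, 23.65, 16.8 and 6.85 TPM in WT mice and 8.80, 8.10, 7.16 and 10.5 TPM in KO mice. The receptor gene Tgfbr1 was lowest in WT 1 and WT 2, at 18.0 and 17.1 TPM against 36.9 to 51.8 TPM. Of 10 tested genes by which neurons and astrocytes contact microglia, none passed. Cx3cl1, the ligand of Cx3cr1, reached 421 TPM in WT 1 and 368 TPM in WT 2, against 26.8 to 85.9 TPM in the other 6, whereas Cd200, another neuronal ligand, had 57.1 and 66.3 TPM there against 227 to 302 TPM. Activation and phagocytosis-associated genes had 8 of 13 below 0, against 39.9% of all genes, with none passing and a median of −0.15. Apoe, which astrocytes also express, had a log2 difference of −1.24 (SE 0.42, adjusted p = 0.43 in limma) and −0.56 without WT 1 and WT 2.

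Markers of other immune and blood cells had other orders of libraries. Summed over 12 border macrophage genes, such as Mrc1 and F13a1, the level was 25.2 and 33.3 TPM in WT 1 and WT 2 and 20.96 to 107.7 TPM in the other 6, with KO 1 highest and KO 3 lowest. In KO 1 the single gene Cbr2 held 55.6 TPM of this sum, against 0.83 to 6.68 TPM in the other 7 libraries. Mrc1 and F13a1 were highest in KO 4 instead, at 17.7 and 23.9 TPM. For 13 monocyte and neutrophil genes it was 2.65 to 5.73 TPM in WT mice and 5.63 to 13.9 TPM in KO mice, 8 of the 13 stayed below 1 TPM in all libraries, and only Ccr2 was tested. For 10 lymphocyte genes it was 1.84 and 2.52 TPM in WT 1 and WT 2 and 11.3 to 16.4 TPM in the other 6, in which Lck held 7.62 to 13.2 TPM, with Cd3g listed at 0 in all. Red blood cell genes summed to 7245 TPM in KO 1 and 1188 to 2075 TPM in the other 7. The part of these cells in the values of Laptm5, Ptprc, Itgb2, Fcgr3 and other markers that leukocytes share was not tested.

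With weights per library estimated by limma, 19 of 31 markers (61.3%) passed as lower in KO, against 23.8% of all genes, and none as higher, against 41.1% of all genes. These weights were 0.130 and 0.138 for WT 3 and WT 4, so the fit sets KO mainly against WT 1 and WT 2. In KO 1 to KO 4 they were 0.986, 5.98, 1.09 and 1.48, so the KO side rests most on KO 2.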

How the data were processed

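The authors deposited TPM values per gene for 8 libraries, with a mean per group that equalled the mean of the 4 libraries and was not used. The tools BWA and edgeR 3.14.0 and the builds GRCm38 and mm10 are listed, with no role, per the submitters' processing notes. The sources used here do not give strand, settings or the annotation counted. TPM keeps no depth, so no counting interval is given. Values were analysed as log2(TPM + 1), which understates differences of low genes. The 15967 genes averaging 1 TPM or more across 8 libraries were fitted with limma 3.58.1 (R 4.3.3; trend, robust, no covariate, two-sided, Benjamini-Hochberg at 0.05), and markers were read from that fit. On simulated data for KO against WT (15967 genes, 100 changed by 4-fold and 100 by 16-fold) it recovered 79% and 96%, with 11 false calls. The simulated noise was independent between genes, without a shared shift like that of the libraries high in Mbp. Changed genes were drawn from those of higher level only, and both sizes were larger than any marker's difference in the main fit. These rates therefore cannot state how well changes in the markers would be found. The markers and lists were chosen with earlier results of these data known. Values in every library are given for the markers of highest level, smallest p or no overlap, and for those the description turned on, and up to 6 genes of each other list are named, with Il34, Mrc1, Sfpi1 and Cd3g chosen after their values were seen. Older symbols were used for Spi1 and a few other listed genes. Positions are from GENCODE M21 on GRCm38, and promoters from RefSeq. Bases after the start matched a GENCODE transcript in 27 of 31 marker windows. Correlations gave no sign that replicate numbers pair the mice (r of same-numbered libraries −0.10 to 0.07). They cannot exclude pairing, because the WT libraries high in Mbp differed widely from the other WT libraries, with no such split in KO. Alternatives were other pseudocounts and filters, TMM and quantile scaling, library weights, a replicate block and leaving out libraries. Figures used matplotlib 3.10.9.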

Additional observations from a re-analysis of the deposited data

Results flagged for a closer look

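Csf1r in KO 4, at 21.96 TPM, stood apart from the other KO libraries, which lay between 16.6 and 17.25 TPM. The gap to the nearest was 0.885 of the range of the 4 libraries, above Dixon's limit for 4 libraries. It was the only such value among 64 groups of 4 libraries examined. Chance gives such a value in about 1 of 20 groups, so 1 among 64 is not more than chance gives.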

How the results depend on the processing

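No marker passed in the main fit, which used all 8 libraries without weights. None passed under other pseudocounts, filters or scalings, with a replicate block or without any single library. With the replicate block the markers called were 0 and the median stayed at −0.37. Library weights gave 10376 genes and 19 markers called and a median of −0.72. Without WT 1 and WT 2, 2 genes and no marker were called, with a median of −0.12. Leaving out each library gave 0 to 1 genes, 0 markers and medians of −0.50 to −0.30. At an unadjusted p under 0.05 there were 1223 genes, against 304 without WT 1, 305 without WT 2, 4272 without WT 3 and 4323 without WT 4, and for markers 3, against 11 without WT 4, 1 without WT 2 and without KO 2, 6 with TMM and 5 with quantile scaling. Without KO 1, KO 2 and KO 4 there were 545, 474 and 434 such genes. The 1 gene called was without KO 3.

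Of 31 markers, 15 kept their direction under each alternative in which they were tested. A mean of at least 5 TPM left 17 markers to test. Sign changes were seen without WT 1 and WT 2 for Csf1r (0.0312), Tmem119 (0.15), Aif1 (0.0448), Itgb2 (0.18), Ptprc (0.13), Csf3r (−0.00687), Ly86 (0.26) and Inpp5d (0.14), with library weights for Hpgds (0.0759), Cd68 (−0.16), Cd83 (0.16), Csf3r (−0.11), Fcer1g (0.10) and Slc2a5 (0.14), after quantile normalization for Cd68 (−0.0829), Csf3r (−0.10) and Runx1 (−0.0494), with TMM for Cd68 (−0.0317) and Csf3r (−0.0357), and with pseudocounts of 0.5 and 0.1 TPM for Ptprc (0.00122 and 0.0334). When single libraries were left out, the log2 difference ran from −0.370 to 0.0113 for Aif1, −0.18 to 0.26 for Cd68, −0.0872 to 0.136 for Cd83, −0.0506 to 0.152 for Csf3r, −0.252 to 0.0416 for Hpgds, −0.163 to 0.00148 for Irf8, −0.0352 to 0.782 for Ltc4s, −0.12 to 0.18 for Ptprc and −0.115 to 0.0851 for Slc2a5. The cause was not tested. Depth is unknown, so the precision of markers near 1 TPM, such as Itgb2, Ptprc and Runx1, cannot be stated.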
